A study of Homo sapiens with 6 samples.

Results

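R-loop resolution genes were followed across all 6 libraries of the series: XRN2, AQR, RNASEH1, RNASEH2A, RNASEH2B, RNASEH2C, TOP1, TOP3B and TDRD3. They were chosen by name as genes whose proteins remove or prevent R-loops, with earlier results of these data known. They are 9 of the 35580 genes to which the deposited transcripts were joined, and all 9 were among the 15223 genes with enough reads to be tested. The cells were Rh30, an established line of alveolar rhabdomyosarcoma, a childhood tumour with features of skeletal muscle. Rh30 carries the PAX3-FOXO1 fusion, so control and siDDX5 cells share it. The control group held 3 libraries, and the siDDX5 group, in which DDX5 had been knocked down, held 3 more. The labels call the 3 libraries of each group biological replicates. They give neither the sequence of the silencing RNA, the control treatment nor the hours between knock-down and harvest, and they describe 1 cell line only.

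An R-loop forms when a nascent RNA pairs again with its template DNA strand and leaves the other DNA strand unpaired. Cells limit R-loops in several ways. Helicases such as DDX5 and AQR unwind the RNA from the DNA, RNase H enzymes cut the RNA within the hybrid, XRN2 digests the RNA left behind when a transcript is cleaved at its end, and topoisomerases relieve the negative supercoiling behind RNA polymerase that favours hybrid formation. DDX5 is described as resolving R-loops together with XRN2, which is the question behind setting these genes against the DDX5 knock-down.

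The libraries held 18202402 to 26156858 estimated counts, with all 3 siDDX5 libraries shallower than all 3 control libraries. A floor of 3 counts corresponded to 0.115 to 0.165 CPM (counts scaled to a common library size). The fewest counts for any of the 9 genes in any library were 232. Markers of the muscle lineage or of this tumour were read from a list of 10 genes. Of these, 9 were above 1 TPM (transcript abundance per length, on a common total) in all 6 libraries. NOS1 lay between 4.47 and 8.74 TPM, and TFAP2B was listed at 0 in all 6. The summed TPM of that list ranged from 1180 to 1520 in control and from 1140 to 1210 in siDDX5 libraries. Summed markers of leukocytes, epithelium, endothelium and fibroblasts reached at most 3.61, 1.51, 7.27 and 18.0 TPM in any library. These are bulk libraries, so fewer cells of a kind and less RNA per cell cannot be told apart.

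The targeted gene followed its labels. DDX5 stood at 1352, 1434 and 1137 CPM in control replicates 1, 2 and 3, and at 549, 504 and 396 CPM in siDDX5 replicates 1, 2 and 3. These CPM are also scaled with TMM factors, edgeR's correction for library composition. DDX5 fell by 1.44 on the log2 scale (SE 0.15, edgeR quasi-likelihood test, adjusted p = 0.0106) and kept 37.0% of its control level. The call was lost without control replicate 1 (adjusted p = 0.0955), without siDDX5 replicate 1 (adjusted p = 0.0655) and without siDDX5 replicate 2 (adjusted p = 0.0531), while the value stayed between -1.54 and -1.30 with each library left out.

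None of the 9 genes passed the threshold used throughout, an adjusted p under 0.05 after Benjamini-Hochberg correction over all genes. The same fit called 25 of 15223 genes, or 0.164%, with 8 (0.0526%) higher and 17 (0.112%) lower. With the replicate number as a block, 394 genes (2.59%) were called and again none of the 9. The estimates of the 9 genes were small: 3 lay above 0 and 6 below, the largest was 0.37 in size, and the 95% intervals reached no further than -0.58 and 0.59 on the log2 scale. Their median log2 fold change was -0.08 against 0.00 over all genes tested, and the median size was 0.16 in both. At an unadjusted p under 0.05 there were 3 of the 9 genes, against 11.4% of all genes: TOP1 among the higher and TOP3B and RNASEH2B among the lower. The same 3 genes had groups that did not overlap, against 18.0% of all genes. Genes were chosen by name with earlier results of these data known, so these counts are a description.

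**Figure D1:**
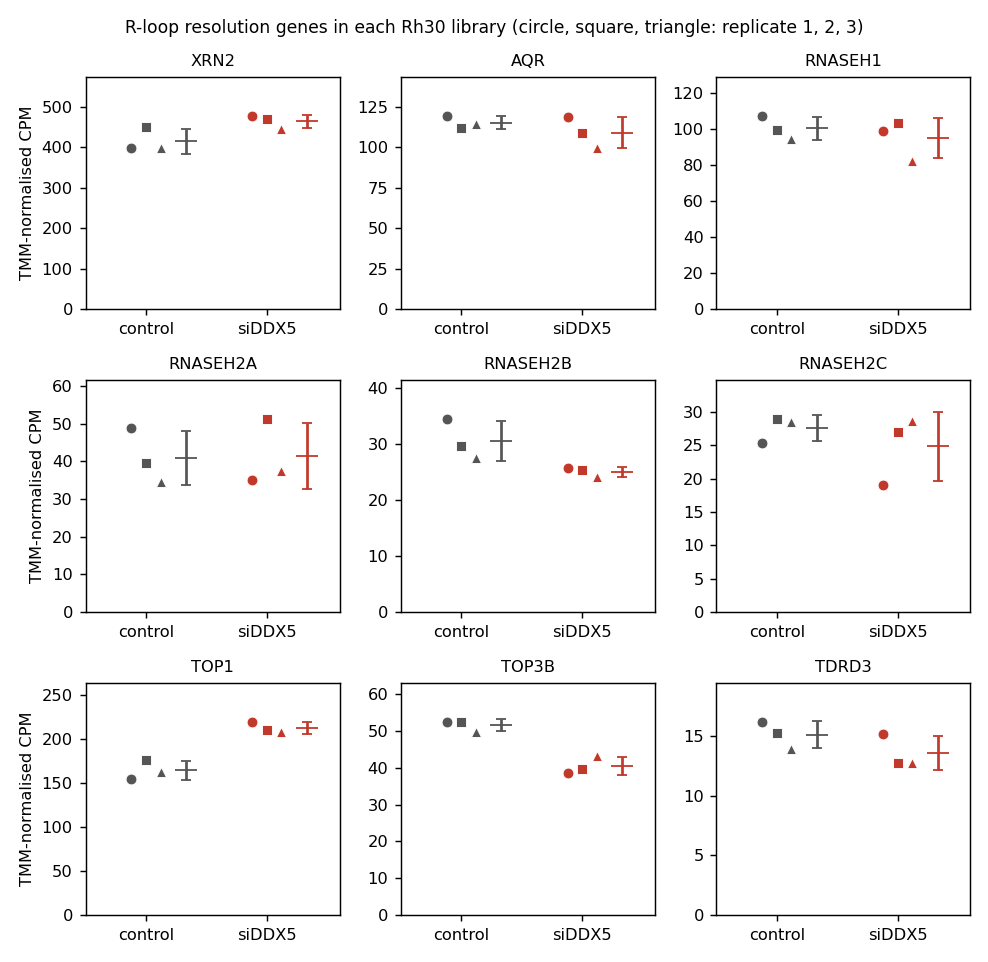
TMM-normalised CPM (vertical axes, each starting at 0) of the 9 genes in the 3 control (grey) and 3 siDDX5 (red) libraries; symbols mark replicate numbers and the bars beside them the mean ± SD. TOP1 has all siDDX5 libraries above all control libraries, TOP3B and RNASEH2B have them all below, and the groups of the other 6 genes overlap.

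XRN2 encodes the nuclear 5′ to 3′ exoribonuclease that digests RNA downstream of the poly(A) cleavage site. The gene lies on chromosome 20 (GRCh38, 21303304 to 21389827, plus strand) and has 1 transcript in the tables. It stood at 397, 450 and 397 CPM in control replicates 1 to 3 and at 478, 470 and 446 CPM in siDDX5 replicates 1 to 3. The groups overlapped by a narrow margin, because control replicate 2 lay above siDDX5 replicate 3. The fold change of siDDX5 over control was 1.12 with a 95% interval from 0.955 to 1.31 (log2 0.16, SE 0.10, edgeR adjusted p = 0.585). Within each same-numbered pair the siDDX5 library was the higher one, by 0.27, 0.06 and 0.17 on the log2 scale.

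XRN2 was the most abundant of the 9 genes per length in both groups, and DDX5 was more abundant still. The TPM ratio of DDX5 to XRN2 was 7.71, 6.94 and 6.08 in control replicates 1 to 3 and 2.95, 2.25 and 1.90 in siDDX5 replicates 1 to 3. DDX5 transcripts thus still exceeded XRN2 transcripts in every knock-down library. This ratio moves with the targeted gene and was not tested.

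Genes that vary like XRN2 were sought by the Pearson correlation of log2 CPM over the 6 libraries, among the 10744 protein-coding genes that averaged 5 CPM or more. The 3 highest were DIS3 (r = 0.994), a catalytic subunit of the RNA exosome, USP15 (r = 0.994), a deubiquitinase, and ZNF268 (r = 0.988), a zinc finger gene. In all, 193 of the 10744 genes had r above 0.9. None of the 3 was called, with log2 fold changes of 0.27, 0.24 and 0.29. Among the other members TOP1 varied most like XRN2 (r = 0.92) and TOP3B was furthest from it (r = -0.78).

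AQR encodes Aquarius, an RNA helicase that binds introns in the spliceosome and whose loss is known to raise R-loop levels. It lies on chromosome 15 (34851782 to 34969839, minus strand). AQR stood at 119, 112 and 114 CPM in control and 119, 109 and 99.7 CPM in siDDX5 replicates 1 to 3. Only siDDX5 replicates 2 and 3 lay below all control libraries, and siDDX5 replicate 1 lay within the control range. The log2 fold change was -0.08 (95% interval -0.31 to 0.16, edgeR adjusted p = 0.826).

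The coding transcript AQR-201 held 55.1% ± 6.48 (SD, n = 3) of AQR counts in control and 57.0% ± 3.85 in siDDX5 libraries. AQR-202, annotated as a target of nonsense-mediated decay (NMD, the pathway that destroys messages with an early stop codon), held 36.4% ± 4.86 and 34.7% ± 2.66. The groups overlapped for both transcripts in CPM.

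RNASEH1 encodes RNase H1, a nuclear and mitochondrial enzyme that acts without partners on longer stretches of hybrid. The gene is on chromosome 2 (3544793 to 3558616, minus strand). Its levels were 107, 99.0 and 94.5 CPM in control and 98.9, 103 and 82.2 CPM in siDDX5 replicates 1 to 3. The groups overlapped, with siDDX5 replicate 3 below all others. The log2 fold change was -0.08 (95% interval -0.34 to 0.18, edgeR adjusted p = 0.842). A single coding transcript, RNASEH1-201, held 98.4% of the counts in each group.

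RNase H2 is the more abundant RNase H activity of mammalian nuclei and also removes single ribonucleotides left in DNA. RNASEH2A is its catalytic subunit, and RNASEH2B and RNASEH2C are the accessory subunits needed for a working enzyme. Loss-of-function mutations in any of these subunits cause Aicardi-Goutières syndrome, an inherited interferon disease.

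RNASEH2A (chromosome 19, 12806556 to 12815201, plus strand) varied more within the groups than between them. It stood at 48.8, 39.5 and 34.6 CPM in control and 35.2, 51.3 and 37.5 CPM in siDDX5 replicates 1 to 3. The highest siDDX5 library was also the highest of all 6. The log2 fold change was 0.01, with the widest 95% interval of the 9 genes (-0.38 to 0.40, edgeR adjusted p = 0.990), and its sign changed under 5 of 16 alternatives. The coding transcript RNASEH2A-201 held 40.3% ± 5.52 (SD, n = 3) of the counts in control and 42.0% ± 4.38 in siDDX5 libraries. RNASEH2A-205, annotated as a retained intron and without a 31-base word of its own, held 46.5% ± 2.64 and 46.5% ± 4.88. Both transcripts overlapped between groups in CPM.

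RNASEH2B (chromosome 13, 50909678 to 51024120, plus strand) stood at 34.5, 29.7 and 27.6 CPM in control and 25.7, 25.3 and 24.1 CPM in siDDX5 replicates 1 to 3. All siDDX5 libraries lay below all control libraries, and 9.16% of all genes tested did the same. The log2 fold change was -0.29 (SE 0.13, 95% interval -0.57 to -0.01, edgeR unadjusted p = 0.045, adjusted p = 0.427), or 81.9% of the control level. Over 16 alternatives it lay between -0.36 and -0.19, with an adjusted p between 0.107 and 0.749. The edgeR unadjusted p was 0.0115 with the replicate block and GC correction and 0.19 without control replicate 1, so it passed 0.05 in some settings only. The gene has 46 transcripts in the tables, of which 11 had enough reads to be tested. The 4 that held at least 10% of its counts in either group were the coding RNASEH2B-214 (23.7% ± 7.19 in control and 26.7% ± 7.43 in siDDX5 libraries, SD, n = 3), RNASEH2B-205 (14.3% ± 10.8 and 15.4% ± 2.60), the coding RNASEH2B-202 (11.3% ± 2.76 and 12.01% ± 2.30) and the retained-intron form RNASEH2B-233 (10.7% ± 1.95 and 8.77% ± 1.87). Of these 4, only RNASEH2B-233 had every siDDX5 library below every control library in CPM (log2 -0.52, SE 0.30, edgeR adjusted p = 0.802). RNASEH2B-240, RNASEH2B-246 and RNASEH2B-235, each below 10% of the counts, were lower in the same way. The share of all transcripts that do the same was not counted.

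RNASEH2C (chromosome 11, 65714005 to 65720947, minus strand) stood at 25.3, 28.96 and 28.4 CPM in control and 19.0, 26.9 and 28.7 CPM in siDDX5 replicates 1 to 3. Only siDDX5 replicate 1 stood apart, and without it the log2 fold change went from -0.15 to 0.01. With all libraries the 95% interval was -0.52 to 0.22 (edgeR adjusted p = 0.774). The coding RNASEH2C-201 held 42.6% ± 8.43 (SD, n = 3) of the counts in control and 32.5% ± 12.6 in siDDX5 libraries. The retained-intron forms RNASEH2C-203 (12.99% ± 11.1 and 19.0% ± 5.63) and RNASEH2C-208 (12.4% ± 5.90 and 8.73% ± 2.33) and the processed transcript RNASEH2C-212 (9.12% ± 1.81 and 10.01% ± 1.88) held less. All 4 overlapped between groups in CPM.

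The levels of the 3 subunit genes were compared as log2 ratios of TPM within each library. These TPM were summed over all transcripts, coding or not. Coding transcripts held a mean of 48.9% of RNASEH2A, 46.9% of RNASEH2B and 43.2% of RNASEH2C counts in control libraries. RNASEH2A over RNASEH2B was 0.26 ± 0.14 (SD, n = 3) in control and 0.50 ± 0.18 in siDDX5 libraries (exact permutation test, two-sided, p = 0.2). RNASEH2A over RNASEH2C was 1.77 ± 0.18 and 1.85 ± 0.20 (exact permutation test, p = 0.7), and RNASEH2B over RNASEH2C was 1.51 ± 0.27 and 1.36 ± 0.23 (exact permutation test, p = 0.6). All 3 ratios overlapped between the groups. With 3 libraries against 3 the exact permutation test cannot go below p = 0.1. All 4 partner ratios compared here had an adjusted p of 0.8 in that exact test.

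Some reads of these genes could belong to neighbours. HOOK2, on the opposite strand, and THSD8, on the same strand, overlap RNASEH2A and had 269 to 547 and 134 to 180 counts per library. KAT5 overlaps RNASEH2C on the opposite strand with 535 to 737 counts, and AC108488.2, a coding gene, overlaps RNASEH1 on the same strand with 23 to 47 counts. The library kit keeps the strand, but the strand setting used in counting is not given in the sources used here. Processed pseudogenes of RNASEH1, RNASEH2C and TOP3B had at most 2 counts in any library.

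TOP1 encodes topoisomerase I, which nicks a DNA strand to relax supercoils around moving RNA polymerase. The gene is on chromosome 20 (41028818 to 41124487, plus strand) and has 1 transcript in the tables. It stood at 154, 176 and 162 CPM in control and 219, 210 and 207 CPM in siDDX5 replicates 1 to 3. Every siDDX5 library lay above every control library, as for 8.87% of all genes tested. The fold change was 1.29 with a 95% interval from 1.108 to 1.51 (log2 0.37, SE 0.10, edgeR unadjusted p = 0.0042, adjusted p = 0.208).

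TOP1 was the one member whose call depended on the test. DESeq2 called it (log2 0.38, adjusted p = 0.0338) in a test that called 2.12% of all genes. The replicate block together with a correction for GC content also called it (log2 0.34, adjusted p = 0.0463), with 4.18% of all genes called. The block alone did not (adjusted p = 0.0654). Over 16 alternatives the log2 fold change lay between 0.33 and 0.43, and the adjusted p between 0.0338 and 0.52.

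TOP3B encodes topoisomerase III beta, which acts on single strands and can pass RNA as well as DNA. TDRD3 is its partner, a scaffold whose Tudor domain binds methylated arginines on histones and on RNA polymerase II. TOP3B (chromosome 22, 21957025 to 21982816, minus strand) stood at 52.6, 52.6 and 49.9 CPM in control and 38.7, 39.7 and 43.2 CPM in siDDX5 replicates 1 to 3. All siDDX5 libraries lay below all control libraries. The log2 fold change was -0.35 (SE 0.10, 95% interval -0.58 to -0.12, edgeR unadjusted p = 0.00716, adjusted p = 0.249), or 78.4% of the control level.

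In TPM, which divides by transcript length, the TOP3B groups overlapped. The values were 51.3, 56.2 and 56.6 TPM in control and 44.2, 33.2 and 53.1 TPM in siDDX5 replicates 1 to 3. The adjusted p ranged from 0.0646 to 0.616 over 16 alternatives, with log2 fold changes between -0.39 and -0.29.

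TDRD3 (chromosome 13, 60396457 to 60573878, plus strand) was the least abundant of the 9 genes. It stood at 16.2, 15.2 and 13.9 CPM in control and 15.2, 12.7 and 12.8 CPM in siDDX5 replicates 1 to 3. The groups overlapped through siDDX5 replicate 1. The log2 fold change was -0.16 (95% interval -0.47 to 0.16, edgeR adjusted p = 0.720). The log2 ratio of TDRD3 to TOP3B in TPM was -1.94 ± 0.20 (SD, n = 3) in control and -1.87 ± 0.37 in siDDX5 libraries (exact permutation test, p = 0.8).

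**Figure D2:**
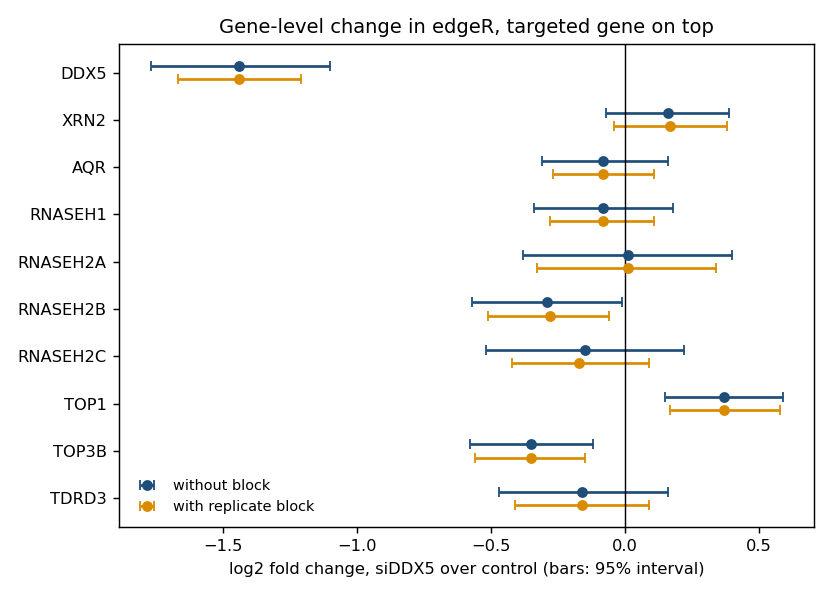
Log2 fold change of siDDX5 over control (horizontal axis) with its 95% interval for DDX5 and the 9 genes, in the edgeR fit without (blue) and with (orange) the replicate number as a block. DDX5 lies at -1.44, and no other gene lies beyond 0.37 in either direction.

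Per length, the order of the 9 genes in control libraries was XRN2 (226 ± 14.7 TPM, SD, n = 3), TOP1 (80.3 ± 5.07), TOP3B (54.7 ± 2.98), RNASEH2A (54.4 ± 5.72), AQR (45.6 ± 2.58), RNASEH2B (45.5 ± 7.14), RNASEH1 (35.7 ± 1.83), RNASEH2C (15.9 ± 0.651) and TDRD3 (14.3 ± 1.76). Neighbours whose libraries overlapped were TOP3B with RNASEH2A, AQR with RNASEH2B, and RNASEH2C with TDRD3. The other neighbours were separate in control. In siDDX5 libraries the same pairs overlapped, and RNASEH2A and AQR did as well.

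The 9 genes have 104 transcripts in the tables, and 51 were tested one by one. None was called, and none of all 61172 transcripts tested was (edgeR, 0%). At an unadjusted p under 0.05 there were 6 of the 51, against 7.08% of all. The share of estimated counts on transcripts annotated as coding overlapped between groups in the 7 genes with more than 1 transcript, with exact permutation p between 0.3 and 1. The widest difference was in RNASEH2C, at 43.2% ± 8.34 in control and 33.02% ± 12.6 in siDDX5 libraries, and siDDX5 replicate 1 (18.4%) set most of it.

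Transcript usage, the division of a gene's counts among its transcripts, was tested with diffSpliceDGE in edgeR. It called TDRD3 (adjusted p = 0.000912) and TOP3B (adjusted p = 0.0168) out of 7 members, in a test that called 170 of 10704 genes (1.59%). Neither call held with the replicate block (adjusted p = 0.0629 for TDRD3 and 0.0842 for TOP3B), nor in limma on the log2 odds of the shares (adjusted p = 0.381 and 0.727). Both were also lost when only transcripts averaging 50 counts or more were tested. That filter removes the deciding transcripts themselves, TOP3B-214 and TDRD3-208, so it cannot weigh these calls. The block called 1.21% of genes for usage and limma on log2 odds 0.0467%. The TOP3B call was also lost without control replicate 3 (adjusted p = 0.659) and without siDDX5 replicate 2 (adjusted p = 0.176). At the level of the single deciding transcript, the block left TOP3B-214 (adjusted p = 0.0383) and TDRD3-208 (adjusted p = 0.0463) past the threshold.

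For TOP3B, the sequences at the junction after a shared exon show how the main coding form and the main NMD form part. The first 15 bases below are common, and the capitals mark the stop codon that the NMD form meets in its extra exon.
TOP3B-210: aacatctgctttgagaaaTGAagccactta
TOP3B-201: aacatctgctttgaggttcttgatgctgtt
The extra exon has 82 bases (GRCh38 chromosome 22, 21970980 to 21971061, minus strand) and its stop codon begins at base 4. TOP3B-201 goes straight to the next exon (21970210 to 21970406). The sequences are those of GENCODE release 29.

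The coding form TOP3B-201 stood at 24.6, 24.9 and 19.2 CPM in control and 19.3, 23.3 and 21.9 CPM in siDDX5 replicates 1 to 3, with overlapping groups (transcript CPM without TMM factors). The NMD form TOP3B-210 stood at 11.1, 9.04 and 11.3 CPM in control and 6.96, 5.81 and 7.15 CPM in siDDX5 replicates 1 to 3, with every siDDX5 library below every control library. On the log2 scale the difference was -0.61 (SE 0.20, edgeR unadjusted p = 0.0193, adjusted p = 0.639). How many of all transcripts separate in this way was not counted, so no share can be set beside this one. TOP3B-210 can be told from other TOP3B transcripts at 382 of its words of 31 bases, kallisto's default matching length, and TOP3B-201 at only 5.

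Counts were therefore also summed over transcripts with and without the extra exon. The 2 transcripts with it stood at 13.7, 11.7 and 13.8 CPM in control and 9.34, 7.21 and 9.04 CPM in siDDX5 replicates 1 to 3, or 65.2% of the control level. The 15 transcripts without it stood at 38.0, 41.7 and 36.1 CPM against 29.9, 30.9 and 34.1 CPM, or 81.9%. In both sets all siDDX5 libraries lay below all control libraries, as for TOP3B as a whole. The 2 transcripts with the extra exon held 25.4% ± 3.005 (SD, n = 3) of TOP3B counts in control and 21.2% ± 2.46 in siDDX5 libraries, and this share overlapped between groups. It is a share of whole transcripts, and inclusion of the exon itself was not measured. In same-numbered pairs the share was 26.5% and 23.8%, 21.96% and 18.9%, and 27.6% and 20.9%, with the siDDX5 library the lower of each pair. These sums were chosen after the values were seen and were not tested.

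The transcript behind the TOP3B usage call was TOP3B-214, a minor form annotated as coding (adjusted p = 0.00736 for the transcript). It had 1.49, 0.952 and 3.56 CPM in control and 0, 0 and 0.282 CPM in siDDX5 replicates 1 to 3. Each of its 31-base words also occurs in another transcript.

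For TDRD3, neighbouring splice sites at the start of an exon on chromosome 13 give forms that differ there by 3 bases. The exon begins at 60485799 in TDRD3-202 and at 60485802 in TDRD3-209, and ends at 60485948 in both. The capitals mark the extra bases.
TDRD3-202: ccttttggacagAAGtgtgtatctcat
TDRD3-209: ccttttggacagtgtgtatctcat
TDRD3-202 and TDRD3-209 also differ elsewhere, with lengths of 2532 and 2497 bases. TDRD3-209, which lacks the extra bases, stood at 2.64, 3.54 and 2.62 CPM in control and 4.05, 3.09 and 2.43 CPM in siDDX5 replicates 1 to 3. Its groups overlapped. These are levels of a whole transcript, and use of the 3 bases was not measured. TDRD3-204 (10.5% ± 11.5 of TDRD3 counts in control and 13.8% ± 6.78 in siDDX5 libraries, SD, n = 3) and the retained-intron form TDRD3-206 (12.5% ± 2.32 and 15.9% ± 2.01) also overlapped between groups in CPM.

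The TDRD3 usage call came from TDRD3-208, a coding form. It had 97.0, 34.1 and 101 counts in control replicates 1 to 3 and 0 in all siDDX5 libraries. TDRD3-208 has the same 14 exons as TDRD3-202 but starts 41 bases earlier and ends 6 bases later. All 2502 words of TDRD3-202 therefore also lie in TDRD3-208, and 41 words belong to TDRD3-208 alone among TDRD3 transcripts. TDRD3-202 stood at 4.42, 5.79 and 1.33 CPM in control and 5.22, 3.62 and 6.30 CPM in siDDX5 replicates 1 to 3. Added together, TDRD3-202 and TDRD3-208 held 46.1% ± 5.86 (SD, n = 3) of TDRD3 counts in control and 37.7% ± 10.4 in siDDX5 libraries, and stood at 72.0% of the control CPM. The groups overlapped in share and in CPM. The part of read division between these transcripts in the 0 estimates was not tested.

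**Figure D3:**
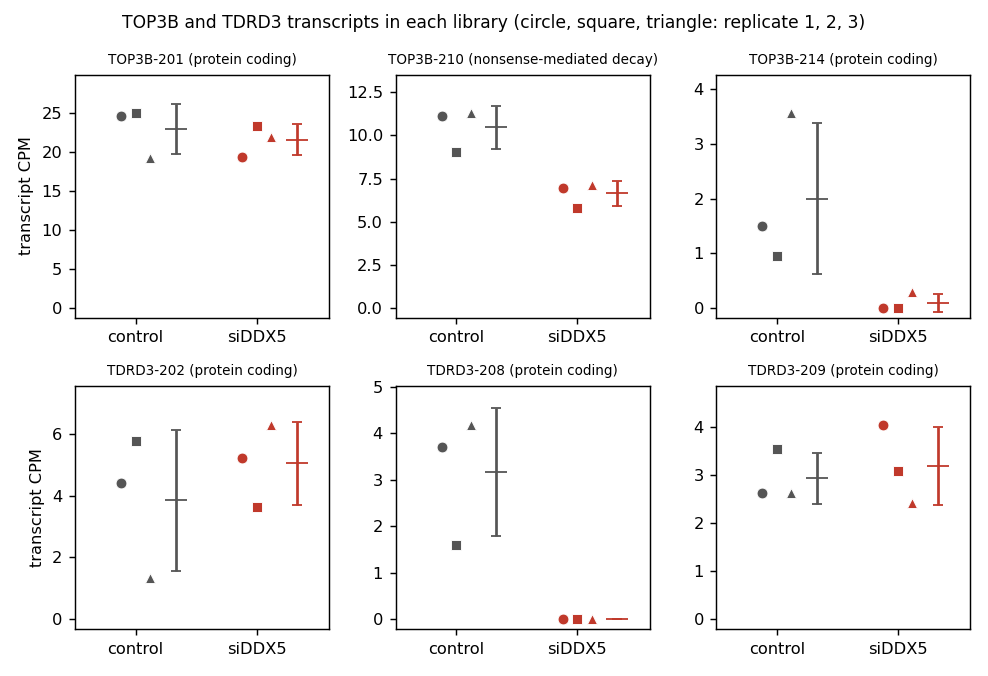
CPM without TMM factors (vertical axes) of 3 TOP3B and 3 TDRD3 transcripts in the control (grey) and siDDX5 (red) libraries; symbols mark replicate numbers and the bars the mean ± SD. TOP3B-210 is lower in all siDDX5 libraries, while TOP3B-214 and TDRD3-208, which decided the usage calls, are at or near 0 there.

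Other genes of the same pathways were read from 6 lists with 88 genes, all of which were tested. None was called in edgeR without the block, against 0.164% of all genes, and 1 was called with it, against 2.59%. Groups did not overlap for 14 higher and 7 lower genes of the 88, against 8.87% and 9.16% of all genes. At an unadjusted p under 0.05 there were 4 higher and 5 lower genes of the 88, against 11.4% of all genes in either direction. The median log2 fold change over the 88 genes was 0.02, beside 0.00 for all genes.

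The list furthest from 0 held RNase H partners and genes of ribonucleotide excision, in which FEN1, PCNA and a DNA ligase finish what RNase H2 begins. Of its 8 genes 5 lay below 0, the median was -0.26, and 3 had an unadjusted p under 0.05. LIG1, the DNA ligase that seals replication nicks, stood at 94.9, 75.9 and 77.7 CPM in control and 65.9, 53.8 and 60.8 CPM in siDDX5 replicates 1 to 3. Its groups did not overlap (log2 -0.46, SE 0.13, edgeR adjusted p = 0.222). It was the 1 gene of the lists called with the replicate block (adjusted p = 0.0259). RPA2, a subunit of the single-strand binding protein RPA that stimulates RNase H1, stood at 78.7 ± 5.88 CPM (SD, n = 3) in control and 64.5 ± 3.11 in siDDX5 libraries (log2 -0.29, edgeR adjusted p = 0.336).

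Among 20 other R-loop helicases and repair factors the median was -0.02, with 2 higher and 1 lower gene at an unadjusted p under 0.05. RTEL1, a DNA helicase of telomeres and replication forks, stood at 26.4, 29.7 and 22.7 CPM in control and 19.4, 12.4 and 18.4 CPM in siDDX5 replicates 1 to 3. The groups did not overlap (log2 -0.65, SE 0.18, edgeR adjusted p = 0.235), and DESeq2 called it (adjusted p = 0.0388). RTEL1 shares exons with a read-through gene, so its counts are uncertain. DDX47, a DEAD-box helicase, stood at 142 ± 9.34 CPM in control and 174 ± 14.9 in siDDX5 libraries (n = 3, log2 0.29, edgeR adjusted p = 0.350).

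The 12 genes of the AQR intron-binding complex and the PRP19 complex, spliceosome parts that act around AQR, had a median of 0.12, and 10 lay above 0. None had an unadjusted p under 0.05. The 2 with the smallest p were CRNKL1 (101 ± 8.64 and 117 ± 11.1 CPM, SD, n = 3, edgeR adjusted p = 0.519) and CWC15 (29.03 ± 3.95 and 35.1 ± 5.62 CPM, edgeR adjusted p = 0.533), and the groups of both overlapped.

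The 19 XRN2 partners and termination factors had a median of 0.00. CDKN2AIP, a protein that binds XRN2, stood at 15.3, 18.5 and 16.8 CPM in control and 20.6, 23.8 and 22.2 CPM in siDDX5 replicates 1 to 3. Its groups did not overlap (log2 0.40, SE 0.13, edgeR adjusted p = 0.295). CPSF1, the largest subunit of the cleavage and polyadenylation factor, had a log2 fold change of -0.23 (edgeR adjusted p = 0.462).

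The 15 factors that package and export messenger RNA had a median of 0.04. SARNP, a partner of the TREX export complex, stood at 49.6 ± 1.36 CPM in control and 61.9 ± 3.53 in siDDX5 libraries (SD, n = 3, log2 0.32, edgeR adjusted p = 0.268). THOC3, a TREX subunit with near-identical copies that make its counts uncertain, had a log2 fold change of -0.33 (edgeR adjusted p = 0.337).

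The 14 topoisomerases, partners and genes that repair trapped topoisomerases had a median of 0.04 and none with an unadjusted p under 0.05. FXR1, whose family binds TDRD3 and TOP3B, stood at 213 ± 3.55 CPM in control and 238 ± 1.00 in siDDX5 libraries (SD, n = 3, log2 0.16, edgeR adjusted p = 0.535). In limma on TPM its log2 fold change was -0.02. TDP2, which removes trapped topoisomerase from DNA ends, had a log2 fold change of 0.17 (edgeR adjusted p = 0.582).

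**Figure D4:**
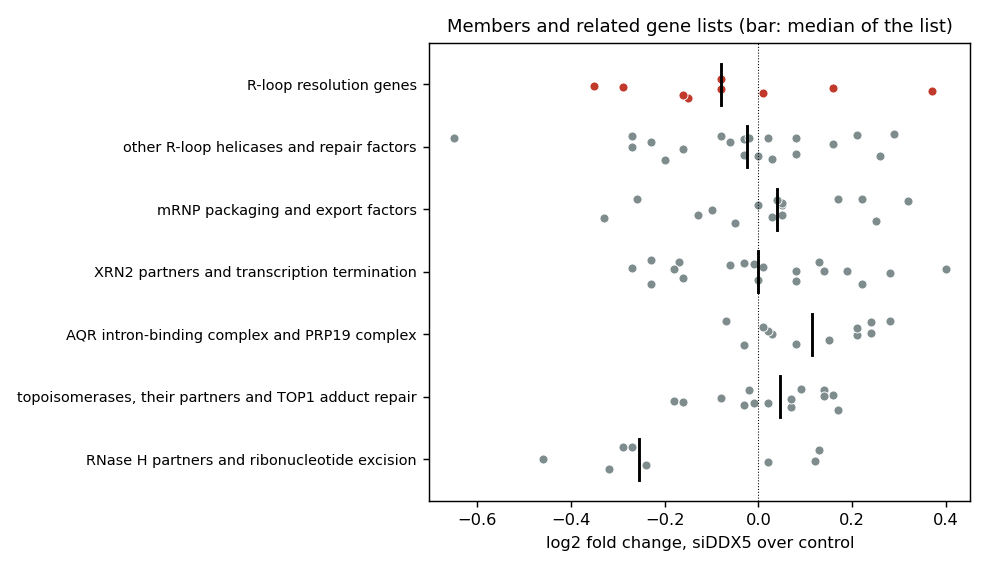
Log2 fold change of siDDX5 over control (horizontal axis) for each of the 9 genes (red) and the 88 genes of 6 related lists (grey), 1 point a gene, with a bar at the median of each list. The medians run from -0.26 for RNase H partners to 0.12 for the AQR and PRP19 complexes.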

How the data were processed

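Messenger RNA of Rh30 cells was sequenced from 3 control and 3 siDDX5 libraries made with a stranded kit, per the labels' protocols. The submitters' processing notes name bcl2fastq 2.20, FastQC 0.11.8, cutadapt 1.11 and kallisto 0.46.0, and the build GRCh38. The authors deposited an estimated count and a TPM value per transcript in each library, per the file headers. Estimated counts were not normalised, and TPM is scaled for length to a common total. Reads shared between transcripts had been divided by the quantifier, and no estimate of that error was used here.

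Of 188753 transcripts, 169797 were joined to genes by identifier with GENCODE release 29, 15315 by symbol and 890 by position, and 2751 were left out. Joined transcripts held 99.59% to 99.63% of the counts. Estimated counts were summed per gene, rounded, filtered with filterByExpr, scaled with TMM and tested by edgeR 4.0.16 under R 4.3.3 (quasi-likelihood F-test, no term besides the group). P-values were adjusted by Benjamini-Hochberg over all genes or transcripts tested. Usage was tested with diffSpliceDGE (Simes). On simulated data the gene tests called few unchanged genes, whereas the usage test called many. limma 3.58.1 on log2 odds of the shares (pseudocount 0.5) was therefore added after the data had been examined. DESeq2 1.42.0, limma-trend on log2 TPM (pseudocounts 1 and 0.1), other filters, GC correction and leaving out each library were the alternatives. Single values per library were compared with exact permutation tests.

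Replicate numbers were read from the titles, and no label says that same-numbered libraries were made together. Their deviations from the group means correlated over 15223 genes (r = 0.19, 0.25 and 0.54 for numbers 1, 2 and 3), so the fit with the number as a block is given beside a result where it changes the call. P-values set the difference between groups against the spread between these libraries, which edgeR estimates partly from other genes.

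The members and the lists were chosen with earlier results of these data known. Besides the members, the text names DDX5, genes of a list called with or without the block and the 2 with the smallest p of each list, transcripts with at least 10% of a gene's counts or called for usage, and the 3 genes most like XRN2.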

Additional observations from a re-analysis of the deposited data

How the results depend on the processing

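The edgeR count of 25 genes called became 323 with DESeq2, 136 with no filter, 2 with length-scaled TPM counts, 1 with limma-trend on log2 TPM at both pseudocounts (1 and 0.1), and 0 to 15 with a library left out; it was 394 with the replicate block and 637 with the block and GC correction. The 2 counts of 0 came without control replicate 1 and without siDDX5 replicate 1 (edgeR, with 1245 and 2042 genes at an unadjusted p under 0.05). Counts of members called stayed at 0 except for 1, TOP1, with DESeq2 and with the replicate block when GC content was corrected too. For the pathway genes the count was 1 with DESeq2 (RTEL1), and 1 (LIG1) with the replicate block, also with GC correction. The DDX5 log2 fold change lost its call at -1.37 with length-scaled TPM counts and at -1.44 with both limma-trend settings, and lay between -1.54 and -1.30 with a library left out. The count of members with changed usage went from 2 to 0 with the replicate block, with a mean of at least 50 counts and with limma on log2 odds, and to 1 to 2 with a library left out. The filter at a mean of 50 counts removes both deciding transcripts, TOP3B-214 and TDRD3-208, so it cannot weigh these calls. RNASEH2A went to -0.04 in both limma-trend settings, and to -0.01, -0.10 and -0.17 without control replicates 2 and 3 and siDDX5 replicate 2 (range -0.17 to 0.16 with a library left out). RNASEH1 went to 0.02 without siDDX5 replicate 3 (range -0.15 to 0.02), RNASEH2C to 0.01 without siDDX5 replicate 1 (range -0.25 to 0.01), and FXR1 to -0.02 in both limma-trend settings. From counts to TPM, the siDDX5 minus control difference in coding share went from 1.65 to -0.42 percentage points for AQR, from 0.73 to -0.22 for RNASEH2A and from 2.92 to -1.51 for TOP3B. In TPM the TOP3B difference had p = 0.1 in the exact permutation test, the smallest that test can give here. In counts, leaving out a library also took differences below 0. AQR went to -2.02 without control replicate 2, and RNASEH2A to -1.66 without siDDX5 replicate 2. RNASEH2B went from 1.00 to -3.34 without siDDX5 replicate 3, and RNASEH1 from 0.00 to -0.12 without control replicate 2. The cause of these changes was not tested. Depth was lowest for single transcripts: 22 of the members' transcripts averaged at least 50 counts, against 51 that were tested.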

Other observations

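The deciding transcripts of the usage calls in TOP3B and TDRD3 had 0 and 41 sequence words of their own, and such words were counted over most genes with a transcript usage test. Only transcripts joined by identifier were used, which left 168 of the 170 genes called for usage. Words are 31 bases long, and a transcript's own words are those that no other transcript of the same gene has. Words shared with other genes were not looked for. In 74 of 168 genes called for usage (44.0%) the transcript with the smallest p had no word of its own, and in 135 (80.4%) it had 50 or fewer. Among 10317 genes not called, these shares were 16.9% and 45.1%. The median was 21 words in called and 70 in other genes. This comparison was made after the values were seen, and no test was run on it.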
